A study of Sus scrofa with 12 samples.

Results

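Histone chaperones are the proteins that carry histones and load them onto DNA or take them off it. A set of 10 of them, chosen by name, was described in porcine oocytes: NPM2, NASP, ASF1A, ASF1B, HIRA, DAXX, CHAF1A, CHAF1B, SSRP1 and SUPT16H. Of these 10 genes, 9 were matched by symbol to an identifier among the 31908 of the data, and 7 reached the mean of 1 FPKM (fragments scaled to transcript length and library size) that entered a gene into the tests, beside 7013 genes tested in all. HIRA and DAXX stayed under that level and are given by their values and an exact test. NPM2, the nucleoplasmin of the egg that decondenses the incoming sperm chromatin, was the member not matched and is not analysed here.

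The members work in a chain. NASP holds the soluble store of histones H3 and H4, and the paralogues ASF1A and ASF1B bind the H3-H4 dimer and hand it to the complexes that deposit it. CAF-1, with its subunits CHAF1A and CHAF1B, places H3-H4 on newly copied DNA, whereas HIRA and DAXX place the variant H3.3 outside replication. FACT, made of SSRP1 and SUPT16H, loosens and rebuilds the nucleosome in the path of polymerases. An egg lays down mRNA and protein of this machinery for the embryo, and transcription is low during the last steps of meiosis.

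The oocytes came from the antral follicles of ovaries of prepubertal gilts collected at a slaughterhouse, and the labels name neither a genotype nor an agent that differed between groups. Cumulus-oocyte complexes, pooled over ovaries, were cultured in a medium with follicular fluid, growth factor and gonadotropins, and the oocytes were stripped of cumulus cells after 0h, 22h or 46h of in vitro maturation. Each time point has 4 libraries of 20 oocytes, made with SMART-Seq2, which primes reverse transcription with oligo-dT and amplifies the cDNA by PCR. The design text of the series calls the middle point 24h where the sample labels have 22h, and the label is used here. The labels do not say whether the libraries came from separate collections, so a p-value measures the spread between these libraries, which may be technical.

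The sample titles name ovarian cells and the methods oocytes, and the cell type was checked against markers. All 11 matched oocyte markers, GDF9, BMP15, the zona pellucida genes ZP2, ZP3 and ZP4, MOS and others, averaged 1 FPKM or more across all 12 libraries. Several were far lower at 46h, where GDF9 had a mean of 37.8 FPKM beside 983.5 at 0h and ZP3 95.5 beside 2967.5, and where DDX4, ZAR1 and NOBOX were under 1 FPKM at 0.688, 0.703 and 0.235. Of 15 matched cumulus and granulosa genes, STAR, FST and VCAN did so, LHCGR, INHA and COL1A1 were listed at 0 in all libraries, and the 12 genes with a lower mean, those 3 included, had a summed level of 0.07 to 0.41 FPKM in the 0h libraries, 0.0 to 0.7 FPKM in the 22h libraries and 0.0 to 0.27 FPKM in the 46h libraries. The whole list, which STAR, FST and VCAN lead, summed to between 46.24 and 88.64 FPKM in 0h libraries. It summed to between 55.52 and 85.99 in 22h libraries, and 117.61 and 143.41 in 46h libraries. VCAN carried this rise, with a mean of 58.3 FPKM at 0h and 125.9 at 46h. The means of STAR were 4.47 and 4.63 FPKM, and those of FST 4.93 and 4.41. The FPKM of a library summed to between 697468 and 802184, and a 0h library had 6939 to 7895 genes at 1 FPKM or more, a 22h library 6682 to 7135 and a 46h library 5819 to 6076. The 13 mitochondrially encoded genes took 1.79% to 3.76% of this sum in 0h libraries, between 8.06% and 12% in 22h libraries and 12.8% to 16.7% in 46h libraries. The part in the results below of this rise of the cumulus list, which is that of VCAN, was not tested. With the mitochondrially encoded genes left out of a TPM scaling, the differences between 46h and 0h were -2.34 for ASF1A, 1.18 for ASF1B, -0.82 for CHAF1A and -1.04 for CHAF1B on the log2 scale, and the same 4 members passed. Replicate 4 of 0h stood apart, with a correlation of 0.934 to 0.970 with the other 0h libraries. For several members' results that rest on it, the value without it is also given. FPKM is a share of a library, and in pooled oocytes fewer cells with an mRNA and less mRNA in each cell cannot be told apart.

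Because the libraries were primed on poly(A) tails, the annotated 3′ ends of the members are shown first. In oocytes many stored mRNAs change the length of their tail during maturation, through the polyadenylation hexamer AAUAAA or AUUAAA and a U-rich element such as UUUUAU upstream of it. The last 100 bases of 1 RefSeq transcript per gene (Sscrofa11.1) were searched on the transcript strand for AATAAA or ATTAAA and for TTTTAT or TTTTAAT, where matches of different motifs may overlap. RefSeq held 8 of the 9 measured members by symbol (not HIRA), of which 6 had a hexamer and 2, ASF1B and SSRP1, had TTTTAT. Among 20648 genes the hexamers were found in 60.6%, the TTTTAT or TTTTAAT element in 14.9% and both in 11.1%. The stretches of 30 bases below are all 5′ to 3′ in the 3′ UTR. They show the hexamer of ASF1A, which fell, and of NASP, and the TTTTAT of ASF1B, which rose, and of SSRP1. NASP and SSRP1 passed no test in the fit reported below, and each passed some under alternative processing. Capitals mark the motifs, which in ASF1B are TTTTAT and an ATTAAA directly after it.
ASF1A, minus strand, chr1:43200358-43200387: ggaacacaatatgtgcttattagaAATAAA
NASP, minus strand, chr6:165773978-165774007: acctgtctgcagttttgactcttaAATAAA
ASF1B, plus strand, chr2:65072624-65072653: aggattTTTTATATTAAAtatgtttggttg
SSRP1, plus strand, chr2:13629163-13629192: ttctacTTTTATtttgtatttctggtctgt
ASF1B also had AATAAA, whose first base was 21 bases from the annotated end, and its TTTTAT began 52 bases from that end. In SSRP1 the TTTTAT began 65 bases and AATAAA 27 bases from the end. CHAF1A and CHAF1B, which fell, had neither motif in this window, and NASP, ASF1A, SUPT16H and DAXX had a hexamer only. A match is a run of letters, not a shown site, and a change in the amount of an mRNA cannot be told apart here from a change in the share of its molecules that carried a tail long enough to be primed.

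By level, the members fell into 4 tiers at 0h. NASP (220.4 ± 123.3 FPKM, mean ± SD, n = 4), ASF1A (205.5 ± 75.3) and ASF1B (141.1 ± 34.4) were the most abundant, at ranks 399, 431 and 585 of the 7013 genes tested. SUPT16H (25.1 ± 2.05 FPKM) and CHAF1A (22.5 ± 12.2) came next, followed by SSRP1 (4.86 ± 2.87) and CHAF1B (4.22 ± 1.5), and DAXX (0.297 ± 0.0665) and HIRA (0.113 ± 0.0608) were lowest. Neighbours within the 3 upper tiers overlapped in their libraries, whereas neighbouring tiers did not. At 46h the order was ASF1B, NASP, ASF1A, SUPT16H, CHAF1A, SSRP1, CHAF1B, DAXX and HIRA, and there the libraries of DAXX and HIRA were the only neighbours that overlapped. The libraries of the H3-H4 carriers thus overlapped at 0h, though ASF1A was above ASF1B within each 0h library, and lay apart at 46h. The 46h means were 302.9 ± 81.1 FPKM for ASF1B, 123.8 ± 26.8 for NASP and 35.6 ± 4.09 for ASF1A. These levels are per length of transcript. A comparison between genes still carries the limits of priming on the tail and, for SUPT16H, of reads shared with an antisense gene.

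**Figure D1:**
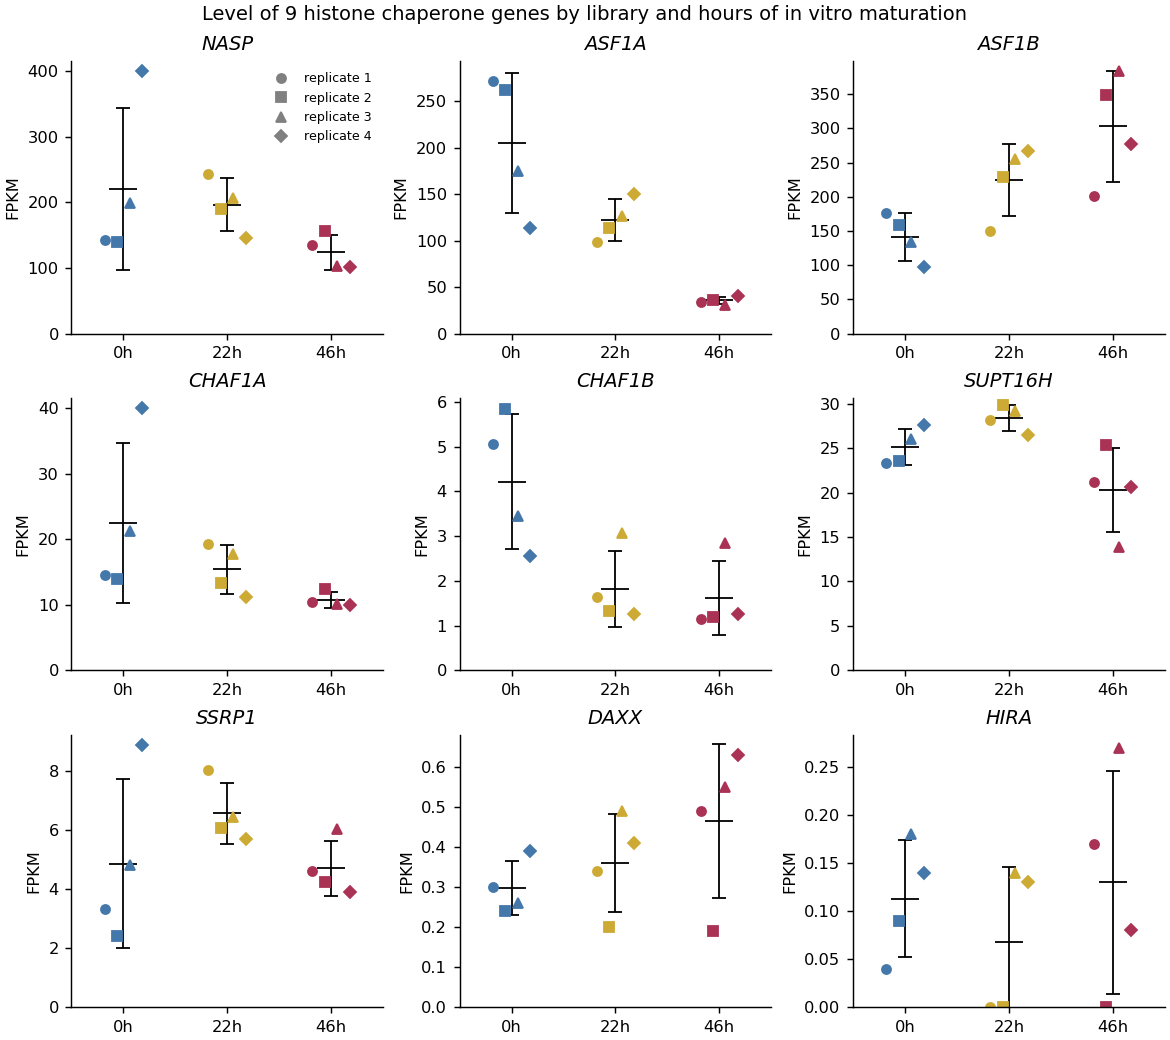
FPKM of 9 histone chaperone genes (vertical axis, from 0, its scale differing between genes) against hours of in vitro maturation, with 1 point per library, its shape giving the replicate number, and bars for the mean ± SD of 4 libraries, which are drawn down to 0 at most. ASF1A lies between 30.93 and 40.67 FPKM at 46h and at 98.0 FPKM or above before, ASF1B lies higher at 46h than at 0h, and the diamond of replicate 4 stands high for NASP, CHAF1A and SSRP1 at 0h.

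Between 0h and 46h, 4 of the 7 tested members changed (limma, adjusted p under 0.05 and fold change over 1.5): ASF1A, CHAF1A and CHAF1B fell and ASF1B rose. Over all genes tested 55.9% changed in this comparison, 16.8% higher and 39.1% lower, so the share of members is near the background. The members' split was 1 rising and 3 falling. It became 1 and 2 after median-of-ratios scaling, 2 and 1 after quantile normalization, and 1 and 4 as TPM. Of all genes, 2046 rose and 2312 fell after median-of-ratios scaling, 2877 and 1789 after quantile normalization, and 1006 and 2929 as TPM. Between 0h and 22h 1 member changed, CHAF1B, which fell, against 26.7% of all genes (7.84% higher and 18.9% lower), and between 22h and 46h 1 member, ASF1A, which fell, against 42.4% (9.87% higher and 32.6% lower). NASP, SSRP1 and SUPT16H passed both thresholds in none of the 3 comparisons, and 63.7% of all genes passed them in at least 1. The 3 comparisons share libraries and are not independent of each other. The median log2 fold change of the 7 members was -0.04, -0.46 and -0.71 for 22h vs 0h, 46h vs 22h and 46h vs 0h, beside -0.001, -0.26 and -0.25 for all genes. Without 0h replicate 4 the members' median was 0.22 for 22h vs 0h and -0.38 for 46h vs 0h. The median of all genes was then 0.03 and -0.17. After median-of-ratios scaling the members' median was -0.31 for 46h vs 0h. For 46h vs 22h it was -0.13 after median-of-ratios scaling and 0.01 after quantile normalization, beside 0.02 and 0.21 for all genes.

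The scaling of the libraries moves these values together. For 46h vs 0h the median of all genes was -0.25 as deposited, 0.06 after median-of-ratios scaling, 0.37 after quantile normalization, and -0.34 as TPM. The share of higher genes among those called was 30.1% as deposited, 46.9% after median-of-ratios scaling and 61.7% after quantile normalization. For 46h vs 22h that share was 23.3%, 44.0% and 59.5% in the same order, and for 22h vs 0h it was 29.4% as deposited, 48.2% after quantile normalization and 39.5% as TPM without mitochondrially encoded genes. Relative to the median of all genes, ASF1A differed between 46h and 0h by -2.34 to -2.08 on the log2 scale over 5 scalings, ASF1B by 0.96 to 1.43, CHAF1A by -0.70 to -0.56, CHAF1B by -0.84 to -0.70, NASP by -0.79 to -0.37, SSRP1 by 0.32 to 0.38 and SUPT16H by -0.15 to 0.00. On this relative scale ASF1A was lowest and ASF1B highest of the members in each of the 5 scalings.

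**Figure D2:**
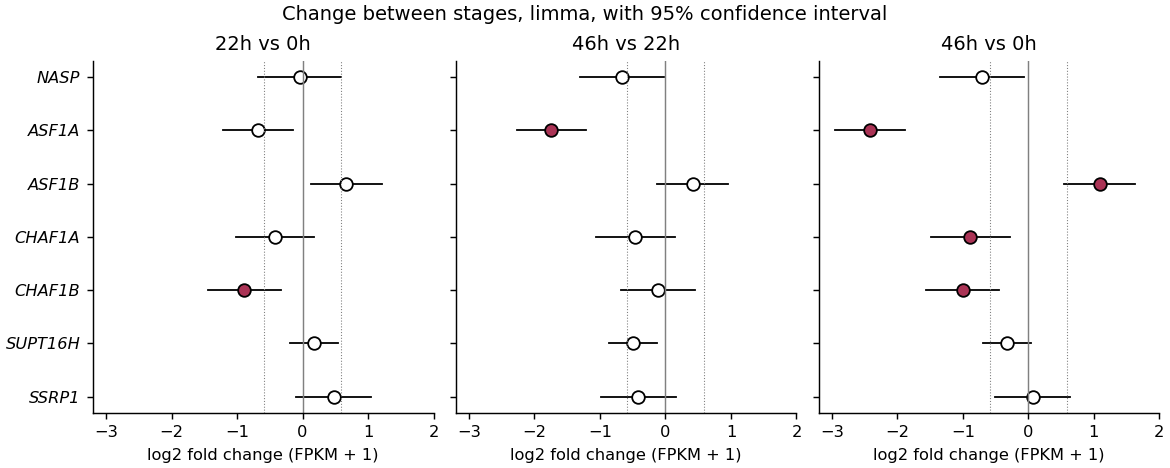
Log2 fold change of FPKM + 1 (horizontal axis) of the 7 tested members in each comparison of stages, with the 95% confidence interval from limma, where filled points passed both thresholds and dotted lines mark a fold change of 1.5. ASF1A is at -2.42 and ASF1B at 1.09 for 46h vs 0h, and most other intervals cross a dotted line.

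The largest change among the members was in ASF1A (ENSSSCG00000004247). This gene lies on the minus strand of chr1:43200339-43215019 and its annotated 3′ UTR is 1559 bases long. It measured 271.92, 261.96, 174.5 and 113.64 FPKM in replicates 1 to 4 of 0h, 98.0, 113.72, 126.29 and 150.68 FPKM at 22h, and 34.23, 36.55, 30.93 and 40.67 FPKM at 46h. All 46h libraries lay below all others, and the 0h and 22h libraries overlapped through replicate 4 of 0h alone. From 0h to 46h ASF1A fell by 2.42 on the log2(FPKM + 1) scale (95% confidence interval -2.95 to -1.89), a fold change of 5.35 (limma, adjusted p = 1.01e-06). From 22h to 46h it fell by 1.74 (limma, adjusted p = 5.2e-05). For 22h vs 0h the difference was -0.68 ± 0.248 (SE) and missed the threshold (limma, adjusted p = 0.0508, 0.00267 to 0.147 over the alternatives). It passed without 0h replicate 4 (-0.94, adjusted p = 0.00267) and without 22h replicate 4 (-0.79, adjusted p = 0.0488). It also passed without both 0h replicate 4 and 22h replicate 1 (-0.84, limma, adjusted p = 0.00522). At the same difference of -0.68 it passed with a mean of at least 5 FPKM (limma, adjusted p = 0.0466). With an eBayes prior without trend it passed narrowly (limma, adjusted p = 0.05 after rounding).

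Its paralogue ASF1B (ENSSSCG00000013772), known from dividing cells, went the other way. It lies on the plus strand of chr2:65063186-65072681, with an annotated 3′ UTR of 999 bases. The 0h libraries held 176.27, 157.96, 133.59 and 96.73 FPKM, those of 22h 149.81, 228.64, 255.89 and 266.21 FPKM, and those of 46h 200.98, 349.23, 383.88 and 277.64 FPKM. The 46h libraries all lay above the 0h libraries, while the 22h libraries overlapped both. ASF1B rose by 1.09 from 0h to 46h (95% confidence interval 0.55 to 1.63), a fold change of 2.13 (limma, adjusted p = 0.00172). The steps to it were 0.67 for 22h vs 0h (limma, adjusted p = 0.0569, 0.017 to 0.145 over the alternatives) and 0.42 for 46h vs 22h (limma, adjusted p = 0.188), of which neither passed. The second passed after median-of-ratios scaling (0.77, adjusted p = 0.0401). Leaving out 0h replicate 1 (0.79, adjusted p = 0.0455), 22h replicate 1 (0.85, adjusted p = 0.0182) or 46h replicate 1 (0.67, adjusted p = 0.0453) brought the first step past the threshold, as did quantile normalization (0.80, adjusted p = 0.017) and TPM without mitochondrially encoded genes (0.75, adjusted p = 0.0424).

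Within a library, the ratio of ASF1B to ASF1A is left as it is by any scaling that multiplies all genes of the library by 1 factor, which quantile normalization does not. Its lowest, median and highest values were 0.603, 0.707 and 0.851 at 0h, 1.53, 1.89 and 2.03 at 22h, and 5.87, 8.19 and 12.4 at 46h. ASF1A was thus the higher of the paralogues in every 0h library and ASF1B in every later one, and the stages did not overlap. Replicate 4 of 0h, which was low for both genes, had a ratio of 0.851 beside 0.603 to 0.766 in the other 0h libraries. These ratios are a description, as the pair was taken from the members with their values known.

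**Figure D3:**
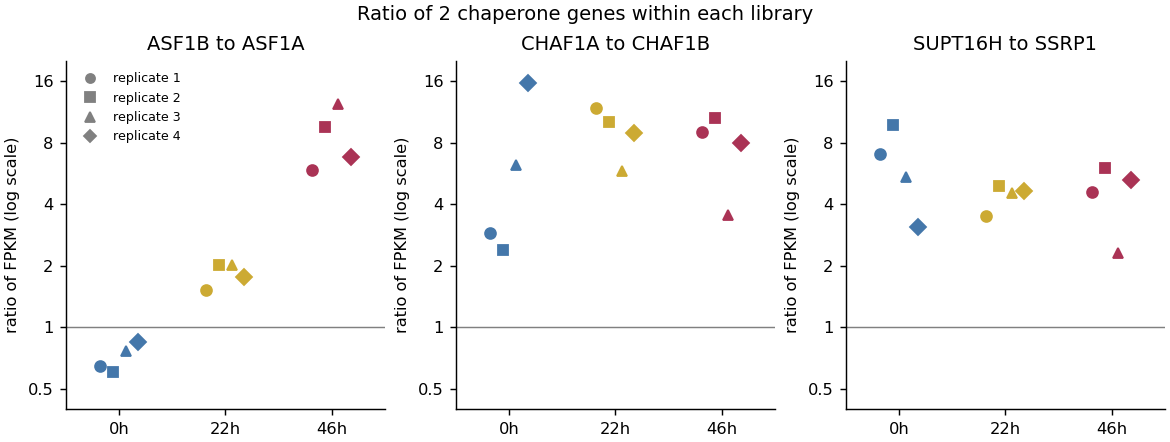
Ratio of the FPKM of a pair of chaperone genes within each library (vertical axis, log scale) against hours of in vitro maturation, 1 point per library and a grey line at a ratio of 1. The ratio of ASF1B to ASF1A steps from 0.603 to 0.851 at 0h up to 5.87 to 12.4 at 46h. The ratios within CAF-1 and within FACT overlap between stages. Within FACT, 0h overlaps with the middle time point through replicate 4 of 0h alone, whose ratio is 3.1.

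NASP (ENSSSCG00000029573, chr6:165773964-165804955, minus strand) had the highest mean of the members at 0h. It measured 142.34, 139.22, 199.21 and 400.66 FPKM at 0h, 243.61, 189.42, 207.47 and 146.23 FPKM at 22h, and 135.48, 156.14, 102.51 and 101.07 FPKM at 46h. The 0h mean and its rank rested on replicate 4, and by the median of the 0h libraries ASF1A was higher (218.23 beside 170.775 FPKM). The libraries of all stages overlapped. The differences were -0.04 for 22h vs 0h (limma, adjusted p = 0.924), -0.66 ± 0.298 (SE) for 46h vs 22h (limma, adjusted p = 0.0806) and -0.71 for 46h vs 0h (95% confidence interval -1.35 to -0.07, limma, adjusted p = 0.0514, 0.0225 to 0.303 over the alternatives). Without 0h replicate 4 the 22h vs 0h difference was 0.29, that of 46h vs 22h passed (-0.66, adjusted p = 0.0123, from a smaller shared spread) and that of 46h vs 0h was -0.38. The 46h vs 0h difference passed as TPM (-0.81) and with a mean of at least 5 FPKM (-0.71, limma, adjusted p = 0.0498). It also passed without 0h replicate 1 (-0.87), 0h replicate 2 (-0.88) or 46h replicate 2 (-0.83). That of 46h vs 22h passed as TPM too (-0.755, limma, adjusted p = 0.0402), and with only these 2 stages in the fit (-0.66, limma, adjusted p = 0.0159).

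CAF-1 fell in both subunits between 0h and 46h. The large subunit CHAF1A (ENSSSCG00000013509, chr2:74380706-74411875, minus strand) held 14.6, 13.97, 21.33 and 40.1 FPKM at 0h, 19.27, 13.34, 17.79 and 11.17 FPKM at 22h, and 10.36, 12.45, 10.06 and 9.93 FPKM at 46h. Every 46h library lay below every 0h library, and the 22h libraries overlapped both. CHAF1A fell by 0.88 from 0h to 46h (95% confidence interval -1.484 to -0.285, limma, adjusted p = 0.0129), a fold change of 1.85, and its steps were -0.42 (limma, adjusted p = 0.268) and -0.46 (limma, adjusted p = 0.19). Without 0h replicate 4, its highest library, the fall to 46h was 0.57 (adjusted p = 0.0257) and under the fold threshold, and the step from 0h to 22h was -0.11. It also missed the thresholds after median-of-ratios scaling (-0.51) and quantile normalization (-0.33).

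The smaller subunit CHAF1B (ENSSSCG00000012056, chr13:200048096-200074902, plus strand) was the least abundant of the tested members at 22h and 46h, and at 0h it overlapped with SSRP1. Its values were 5.06, 5.84, 3.44 and 2.55 FPKM at 0h, 1.64, 1.32, 3.07 and 1.25 FPKM at 22h, and 1.15, 1.18, 2.85 and 1.25 FPKM at 46h. Replicate 3 of 22h and of 46h lay above replicate 4 of 0h, so the stages overlapped, and the other later libraries were below all of 0h. CHAF1B fell by 0.89 from 0h to 22h (95% confidence interval -1.45 to -0.325, limma, adjusted p = 0.0193, 0.00647 to 0.06 over the alternatives) and by 1.0 from 0h to 46h (limma, adjusted p = 0.00393), with a difference of -0.12 between 22h and 46h (limma, adjusted p = 0.739). The first fall lost significance without 0h replicate 1 (-0.80, adjusted p = 0.0547), 0h replicate 2 (-0.74, adjusted p = 0.0577), 22h replicate 2 (-0.81, adjusted p = 0.0587) or 22h replicate 4 (-0.79, adjusted p = 0.06), and also without the filter on low values (adjusted p = 0.0558). Quantile normalization ended the calls of both the first (-0.74, adjusted p = 0.0512) and the second fall (-0.33). The ratio of CHAF1A to CHAF1B lay between 2.39 and 15.7 in the 0h libraries. It lay between 5.79 and 11.8 in those of 22h, and 3.53 and 10.6 in those of 46h. The value of 15.7 was that of replicate 4, and without it the 0h libraries lay between 2.39 and 6.2. The subunits thus kept no fixed proportion among the 0h libraries.

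In FACT, neither subunit passed both thresholds. SUPT16H (ENSSSCG00000022900, chr7:77780968-77814519, plus strand), the large subunit, was the steadiest member at 0h and 22h, with 23.33, 23.52, 26.06 and 27.57 FPKM at 0h, 28.12, 29.81, 29.2 and 26.45 FPKM at 22h, and 21.14, 25.36, 13.9 and 20.64 FPKM at 46h. The 46h libraries lay below the 22h libraries without overlap. That difference was -0.50 (95% confidence interval -0.86 to -0.13, limma, adjusted p = 0.0276), a fold change of 1.41 and so under the threshold of 1.5, which it passed without 46h replicate 2 (-0.61) and as TPM (-0.59, adjusted p = 0.0121). After median-of-ratios scaling it was -0.15 (adjusted p = 0.516) and after quantile normalization -0.04 (adjusted p = 0.876). The other differences of SUPT16H were 0.17 for 22h vs 0h (limma, adjusted p = 0.473) and -0.32 for 46h vs 0h (limma, adjusted p = 0.115). Exons of SUPT16H share 556 bases with RPGRIP1 and 254 with LOC106504487 on the other strand. RPGRIP1 measured 35.32 to 142.89 FPKM, and since the kit does not mark strand, reads from the shared stretch cannot be told apart.

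SSRP1 (ENSSSCG00000029059, chr2:13619666-13629233, plus strand), the HMG-box subunit, held 3.31, 2.4, 4.82 and 8.9 FPKM at 0h, 8.05, 6.08, 6.43 and 5.7 FPKM at 22h, and 4.61, 4.24, 6.04 and 3.91 FPKM at 46h. All stages overlapped, and without replicate 4 the 0h libraries were below all 22h libraries. The differences were 0.48 for 22h vs 0h (95% confidence interval -0.09 to 1.05, limma, adjusted p = 0.187, 0.00938 to 0.472 over the alternatives), -0.41 for 46h vs 22h (limma, adjusted p = 0.219) and 0.07 for 46h vs 0h (95% confidence interval -0.51 to 0.64, limma, adjusted p = 0.84). After quantile normalization the first was 0.65 and the last 0.75, and both passed (limma, adjusted p = 0.0251 and 0.00555). Without 0h replicate 4 the first was 0.77 and passed (limma, adjusted p = 0.00938), and the last was 0.36. The ratio of SUPT16H to SSRP1 lay between 3.1 and 9.8 at 0h, 3.49 and 4.9 at 22h, and 2.3 and 5.98 at 46h. Without replicate 4 the 0h libraries lay between 5.41 and 9.8, above all 22h libraries.

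Groups whose libraries did not overlap were counted as well. None of the 7 members separated 22h from 0h, where 28.9% of all genes did (10.3% higher and 18.6% lower). Of them 2 separated 46h from 22h (ASF1A and SUPT16H, both lower, where 48.6% of all genes separated, 13.2% higher and 35.4% lower). Another count of 3 separated 46h from 0h (ASF1A and CHAF1A lower, ASF1B higher, where 57.3% of all genes separated, 18.2% higher and 39.2% lower). In replicate 4 of 0h, NASP, CHAF1A and SSRP1 were above their 0h mean by 1.0, 0.93 and 0.88 on the log2 scale, and ASF1A, ASF1B and CHAF1B differed from it by -0.77, -0.51 and -0.51. The deviations of this library from its stage correlated with those of 22h replicate 1 at r = 0.532 across the genes tested, which are not independent. Without 0h replicate 4, 3 members changed between 0h and 22h (SSRP1 higher, ASF1A and CHAF1B lower), where 31.0% of all genes did. In its absence the libraries of ASF1A and CHAF1B (lower) and SSRP1 and SUPT16H (higher) also separated 22h from 0h. Groups of fewer libraries separate more easily for any gene. All genes were not counted in this way without it, so these separations have no background and are not a result about the members. Without both libraries 4 members changed, where 31.4% of all genes did, ASF1B being the fourth, at 0.69 (limma, adjusted p = 0.0257). The second of these alternatives was added after the data were seen.

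The members that deposit H3.3 were near the lower end of what was detected. HIRA (ENSSSCG00000010118), the scaffold of the HIRA complex, had 0.04, 0.09, 0.18 and 0.14 FPKM at 0h, 0.14 and 0.13 FPKM in replicates 3 and 4 of 22h with replicates 1 and 2 listed at 0, and 0.17, 0.27 and 0.08 FPKM in replicates 1, 3 and 4 of 46h with replicate 2 listed at 0. DAXX, which works with ATRX and lies on the minus strand of chr7:29676854-29681145, had 0.3, 0.24, 0.26 and 0.39 FPKM at 0h, 0.34, 0.2, 0.49 and 0.41 FPKM at 22h, and 0.49, 0.19, 0.55 and 0.63 FPKM at 46h. The stages overlapped for both genes. The difference of mean log2(FPKM + 1) between 46h and 0h was 0.02 for HIRA (exact two-sided permutation test, p = 0.857) and 0.17 for DAXX (exact permutation p = 0.171), where the smallest p that 4 against 4 libraries allow is 0.0286. For 22h vs 0h it was -0.06 for HIRA (exact permutation p = 0.371) and 0.07 for DAXX (exact permutation p = 0.457), and for 46h vs 22h it was 0.08 for HIRA (exact permutation p = 0.486) and 0.10 for DAXX (exact permutation p = 0.457). Without 46h replicate 2, the lowest DAXX library of that stage, the 46h vs 0h difference of DAXX was 0.26 (exact permutation p = 0.0286). This p is the smallest that the libraries left allow, since the 46h libraries left all lay above the 0h libraries. Of 8 such omissions, 7 kept the direction and a p not under 0.05. DAXX was above 0 in all 12 libraries and HIRA in 9 of them. The depth of the libraries is unknown, so a listed 0 does not show that the mRNA was absent.

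**Figure D4:**
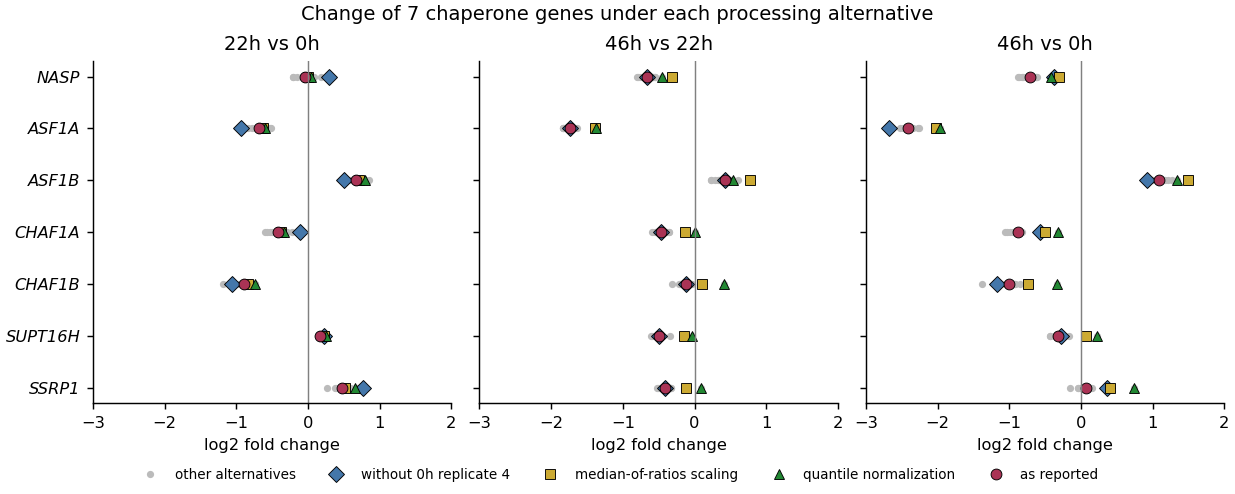
Log2 fold change (horizontal axis) of the 7 tested members in each comparison of stages under each processing alternative, with the value as reported in red and grey points for alternatives not named in the key. ASF1A stays between -2.67 and -1.97 and ASF1B between 0.92 and 1.49 for 46h vs 0h, whereas SUPT16H and SSRP1 lie on both sides of 0.

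The partners and other chaperones were a list of 26 genes, of which 21 were matched and 16 tested. Between 0h and 46h, 6 of these 16 rose, 3 fell and 7 did not pass, where 16.8% of all genes were higher and 39.1% lower, and their median log2 fold change was 0.27 beside -0.25 for all genes. Without 0h replicate 4, 4 rose and 2 fell, where 1292 and 2669 of all genes did. The count of those that rose was 4 as TPM and 10 after quantile normalization, where 1006 and 2877 of the 7013 genes tested rose. The list's median was above that of all genes in each scaling tried. For 22h vs 0h 1 rose and none fell, beside 7.84% and 18.9% of all genes. The number that rose was 4 after median-of-ratios scaling, quantile normalization or as TPM without mitochondrially encoded genes, and 5 without 0h replicate 4. Of all genes 667, 1048, 790 and 862 rose in the same order. For 46h vs 22h 2 rose and 3 fell, beside 9.87% and 32.6% of all genes. These counts were 6 and 2 after median-of-ratios scaling, 6 and 1 after quantile normalization, and 0 and 4 as TPM. Of all genes, 1407 rose and 1793 fell after median-of-ratios scaling, 1971 and 1340 after quantile normalization, and 525 and 2522 as TPM. The list was chosen with earlier results of these data known.

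Partners of single members were as follows. RBBP7, a WD40 histone-binding protein of the family that supplies the third CAF-1 subunit, rose by 1.84 from 0h to 46h (limma, adjusted p = 0.0031), from 342.6 ± 182.0 to 1057.6 ± 134.3 FPKM, without overlap and while CHAF1A and CHAF1B fell, and was 1.35 without 0h replicate 4, its lowest library. IPO4, the importin that carries H3-H4 with ASF1, rose by 0.88 (limma, adjusted p = 0.00326), from 3.2 ± 0.589 to 6.81 ± 1.73 FPKM. ATRX, the partner of DAXX, rose by 0.71 (limma, adjusted p = 0.0108), from 5.09 ± 2.05 to 8.64 ± 1.33 FPKM, and fell under the fold threshold without 0h replicate 2 (0.55, adjusted p = 0.0369). MCM2, the helicase subunit that binds H3-H4 beside ASF1, differed by -0.08 (limma, adjusted p = 0.83), with a sign that depended on the scaling. Among the HIRA partners, UBN1 differed by 0.21 (limma, adjusted p = 0.5), or by 0.89 after quantile normalization, where it passed (adjusted p = 0.00153), and the untested UBN2 and CABIN1 had means of 0.585 and 0.0775 FPKM at 46h, beside 1.38 and 0.095 at 0h.

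Of the other listed chaperones, DNAJC9, an H3-H4 co-chaperone, fell by 1.37 from 0h to 46h (limma, adjusted p = 3.05e-06), from 67.3 ± 8.63 to 25.5 ± 4.46 FPKM, and SART3 fell by 1.06 (limma, adjusted p = 0.00564), which was -0.38 and did not pass after quantile normalization. NCL, nucleolin, fell by 0.86 (limma, adjusted p = 0.0306) and VPS72, an H2A.Z chaperone, rose by 0.80 (limma, adjusted p = 0.0294). Neither of the last pair passed without 0h replicate 3 (-0.86 for NCL and 0.80 for VPS72), 0h replicate 4 (-0.71 and 0.62), 46h replicate 3 (-0.56 and 0.59) or 46h replicate 4 (-0.79 and 0.71), or without the filter on low values. NCL did not pass after median-of-ratios scaling (-0.47, adjusted p = 0.201) or quantile normalization (-0.33, adjusted p = 0.368), nor VPS72 as TPM (0.75, adjusted p = 0.06).

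The cargo of the members was listed as 18 histone and histone mRNA genes, leaving out the replication-dependent histones, whose mRNAs oligo-dT reads poorly. Of 11 tested, 2 rose and 4 fell from 0h to 46h, where 16.8% of all genes were higher and 39.1% lower. Their median was 0.04, beside -0.25 for all genes. The count was 5 higher and 4 lower after median-of-ratios scaling (median 0.40, beside 0.06 for all genes). After quantile normalization the count was the same, with a median of 0.14, below the 0.37 of all genes. As TPM it was 2 higher and 5 lower (median -0.05, beside -0.345). The counts of all genes under these scalings are given above with those of the members. H2AZ1, an H2A.Z gene, rose by 1.17 (limma, adjusted p = 8.63e-06), from 96.9 ± 9.94 to 220.0 ± 20.4 FPKM, and CENPA, the H3 variant of centromeres, rose by 0.84 (limma, adjusted p = 0.00485). H3-3A, which encodes the H3.3 that HIRA and DAXX deposit, fell by 1.95 (limma, adjusted p = 9.51e-07), from 248.7 ± 61.9 to 62.6 ± 8.81 FPKM, though reads may be shared with near-identical copies and its value is uncertain. MACROH2A1 fell by 1.88 (limma, adjusted p = 1.17e-06). LSM10, a part of the U7 particle that trims histone mRNAs, fell by 3.18 (limma, adjusted p = 8.72e-09). H2AJ went from 30.95 to 70.72 FPKM at 0h to between 0.0 and 0.52 FPKM at 46h, and fell by 5.19 on the log2(FPKM + 1) scale (limma, adjusted p = 1.63e-09).

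**Figure D5:**
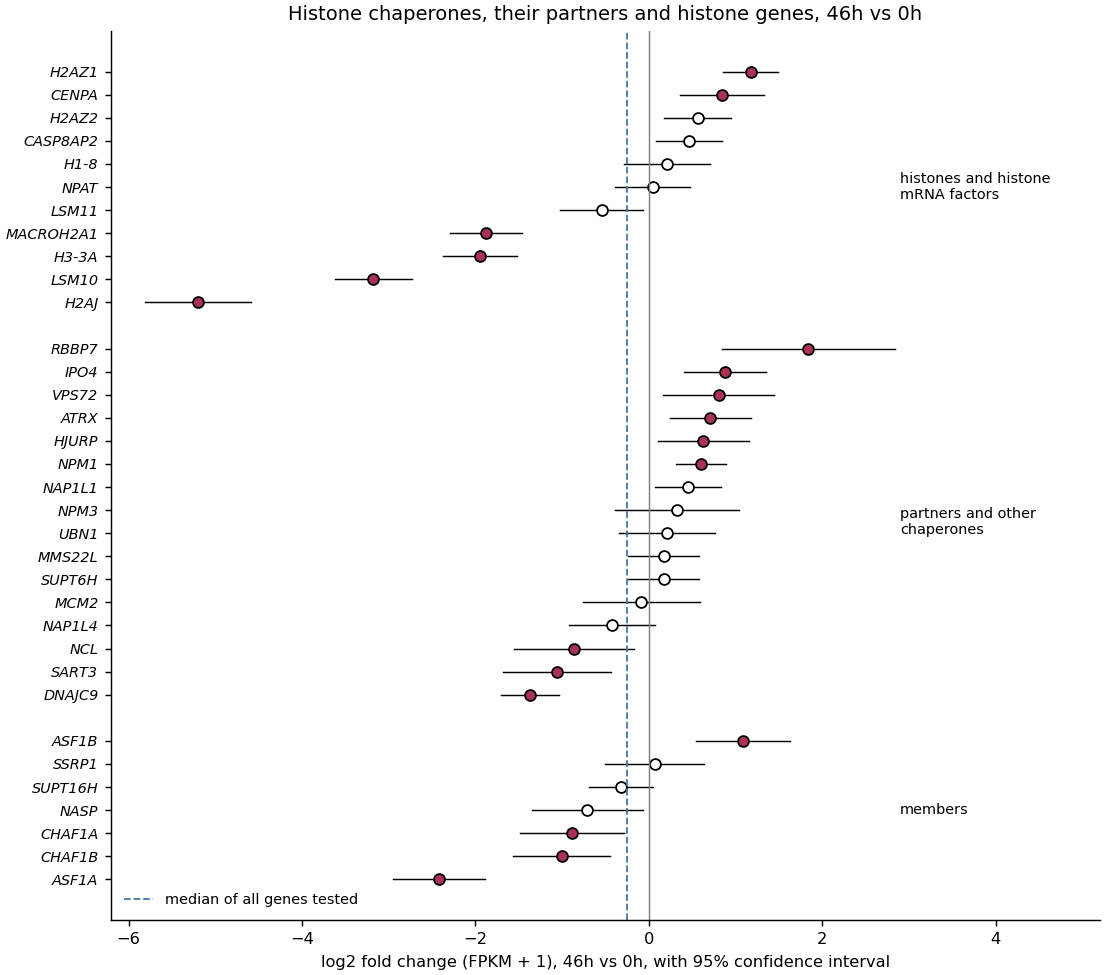
Log2 fold change of FPKM + 1 between 46h and 0h (horizontal axis) with its 95% confidence interval for the tested histone chaperones, their partners and the histone genes, where filled points passed both thresholds and the dashed line is the median of all genes tested. ASF1A at -2.42 is the lowest member, and H2AJ at -5.19 and RBBP7 at 1.84 are the ends of the whole plot.

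By the rule for likeness, the most abundant tested member, ASF1B, was compared with all other named genes. The 5 genes whose log2(FPKM + 1) followed it most closely over the 12 libraries were LEPROT (Pearson r = 0.962), NSL1 (r = 0.962), HAUS4 (r = 0.958), SPATA7 (r = 0.956) and RAE1 (r = 0.955). All were lowest at 0h and highest at 46h, as LEPROT with means of 18.3, 28.9 and 47.5 FPKM and RAE1 with 382.3, 683.3 and 1124.2 FPKM. The libraries share their stage and scaling, so these values describe likeness and carry no test.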

How the data were processed

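Transcriptomes of denuded porcine oocytes were measured in 12 libraries, 4 at each of 0h, 22h and 46h. The deposited files hold 1 FPKM value per Ensembl gene identifier with 2 decimals. Per the labels and the methods, the authors aligned reads with STAR to the swine genome (Sscrofa11). The methods name RSEM for the FPKM values and HTSeq for counts. Depth is unknown, since low values did not give whole reads, and the spread over replicates is the measure of precision. Identifiers were named from a table of gene names. The members and lists were chosen with earlier results of these data known.

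For genes whose mean reached 1 FPKM, log2(FPKM + 1) was modelled in R 4.3.3 by limma 3.58.1 (lmFit, eBayes with trend) with stage as the factor over all 12 libraries, without a block for replicate number. Two-sided p-values were adjusted by Benjamini-Hochberg over 7013 genes. An adjusted p under 0.05 together with a fold change over 1.5 counted as a change. Folds understate the change of low genes. HIRA and DAXX were compared by exact permutation of 4 against 4 libraries. The limma fit was also run on simulated data, of which no outcome is given or used here. Named beside the members were their direct partners, up to 6 genes of each list with the largest change past the thresholds for 46h vs 0h, and the 5 genes most like the most abundant member. Alternatives were the pseudocount, the filter, 4 scalings, the stages in the fit, the prior, the fold threshold, the replicate block and each library left out. NPM2 is not analysed here. Sequences and positions are from RefSeq, Sscrofa11.1.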

Additional observations from a re-analysis of the deposited data

Results flagged for a closer look

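CHAF1B at 46h had 1 library far from the others: replicate 3 measured 2.85 FPKM, and its gap to the nearest library made up 0.922 of the range of the stage on the log2(FPKM + 1) scale, above the 95% critical value of Dixon's test for 4 libraries. In all 27 groups of 4 libraries were examined, and chance marks about 1 in 20 groups.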

How the results depend on the processing

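ASF1A and ASF1B kept their direction and their call for 46h vs 0h in all 23 alternatives, at -2.67 to -1.97 and 0.92 to 1.49, as ASF1A did for 46h vs 22h. The number of members called for 22h vs 0h was 1 as reported, where 26.7% of all genes were called. It was 0 without the filter on low values (9.71% of all genes, then 17633) and 2 after quantile normalization (31.0%). As TPM without mitochondrially encoded genes it was 2 (28.6%), and with an eBayes prior without trend 2 (26.8%). Without both 0h replicate 4 and 22h replicate 1 (added after the data were seen) it was 4 (31.4%). It was 0 to 3 with each library left out (22.0% to 31.0%). For 46h vs 22h, 1 as reported (42.4% of all genes), it was 2 without a fold threshold (48.8%). After median-of-ratios scaling it was 2 (45.6%), as TPM 3 (43.4%), and with only these 2 stages in the fit 2 (44.2%). It was 1 to 2 with each library left out (39.1% to 44.4%). For 46h vs 0h it was 3 to 5. There 24.9% of all genes were called without the filter on low values, and 54.6% to 66.5% under the other alternatives. Signs turned for differences that had not passed. After median-of-ratios scaling NASP for 22h vs 0h was 0.003, CHAF1B for 46h vs 22h 0.10, and SUPT16H and MCM2 for 46h vs 0h 0.063 and 0.31. After quantile normalization NASP was 0.037, CHAF1A, CHAF1B and SSRP1 for 46h vs 22h 0.011, 0.41 and 0.093, and SUPT16H and MCM2 for 46h vs 0h 0.22 and 0.42. As TPM, SSRP1 for 46h vs 0h was -0.011, and without mitochondrially encoded genes NASP for 22h vs 0h was 0.038 and MCM2 0.002. Without both added libraries NASP was 0.18 and MCM2 0.26. With each library left out, NASP for 22h vs 0h ranged from -0.22 to 0.29, CHAF1B for 46h vs 22h from -0.32 to 0.074, and for 46h vs 0h SSRP1 from -0.15 to 0.36, UBN1 from -0.017 to 0.47, MCM2 from -0.36 to 0.26 and HIRA from -0.04 to 0.075. Why these signs turned was not tested. Of all genes 2546 changed for 46h vs 0h with a mean of at least 5 FPKM, where fewer genes were tested, beside 3922. The replicate numbers were not taken to pair the libraries, since not every same-numbered pair correlated above 0.1 in its deviations: the range was -0.466 to 0.381 over 12 pairs, and 0.009 to 0.381 over the 4 pairs of 22h and 46h, and 2 of 12 libraries correlated best with their own number. With the replicate block 1, 1 and 4 members and 1801, 2933 and 3894 of all genes were called for 22h vs 0h, 46h vs 22h and 46h vs 0h. The depth is unknown, which limits what can be said of low values such as those of HIRA and DAXX.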
